A study of Homo sapiens with 8 samples.

Results

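The genes described here are 10 members of the GALNT family, which encodes the enzymes that start mucin-type O-glycosylation: GALNT1, GALNT2, GALNT3, GALNT5, GALNT7, GALNT10, GALNT11, GALNT13, GALNT14 and GALNT16. They were taken by symbol from gene count tables of 57996 symbols, which list 20 family genes in all. The tables come from HAP1 cells, a near-haploid human line derived from a chronic myelogenous leukaemia. The RNA-seq libraries compared here were 2 of BCDIN3D knockout cells, all from 1 clone (clone 11), and 2 of wild-type HAP1 cells. Both groups grew for 48 h in the same serum-containing medium, and each has 1 library from each of the same 2 dates. BCDIN3D encodes a methyltransferase of the 5′ end of histidine tRNA, and the study asked how its loss changes gene expression. The members were chosen from the knockout and wild-type values of these libraries, so their values, fits and calls are given as a description and support nothing.

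A GalNAc-transferase moves N-acetylgalactosamine from UDP-GalNAc onto serine or threonine of proteins passing through the Golgi. The family is redundant in part: some members act on bare peptides, others mainly add sugars next to one already placed, and each has its own preferred sites. The sugar they place is then extended, first by the core 1 galactosyltransferase C1GALT1 with its chaperone C1GALT1C1, and often capped with sialic acid. Mucins and mucin-like surface proteins carry dense clusters of these glycans, while many other secreted proteins carry single ones that can control their cleavage.

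The RNA-seq libraries held 20065041 to 24415272 counts. BCDIN3D itself stood at 1.56 and 2.71 CPM (counts scaled to library sizes corrected by the trimmed mean of M-values, TMM) in the knockout libraries, against 7.40 and 4.90 CPM in the wild-type libraries. Both partners of the fusion that marks the line were counted in all 4 libraries, BCR at 28.3 to 30.5 CPM and ABL1 at 11.3 to 14.5 CPM. Of 10 blood lineage markers only KIT, TAL1 and ITGA2B were abundant enough to be tested. KIT stood at 0.804 and 1.41 CPM in knockout and 10.8 and 10.97 CPM in wild-type and was lower (-3.30 ± 0.23, edgeR adjusted p = 2.61e-16), and TAL1 was higher (0.32 ± 0.08, edgeR adjusted p = 0.00564). The summed level of 7 epithelial markers was 61.9 and 52.9 CPM in knockout and 83.0 and 75.7 CPM in wild-type. All 4 tested ones were lower in knockout at an edgeR adjusted p under 0.05, as were 3.50% of all tested genes. Of these, EPCAM had 4 and 3 counts in knockout against 18 and 21 in wild-type, so it was tested only through wild-type. KRT18 was near the threshold (edgeR adjusted p = 0.0471). The summed level of 8 mesenchymal markers was 688 and 662 CPM in knockout and 600.1 and 580.1 CPM in wild-type. Of the 7 tested ones, VIM and SPARC were higher in knockout at that threshold, as were 3.06% of all tested genes. The other tested ones passed it in neither direction. Among the epithelial markers, CDH1 and KRT19 had at most 4 counts in any library and CLDN4 at most 7. Over all 4 libraries KRT18 stood at 41.6 to 58.9 CPM, KRT8 at 7.33 to 17.9 CPM and ESRP1 at 2.31 to 6.36 CPM. These marker shifts ran alongside the GALNT differences below, and their part in them was not tested.

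Knockout cells had less transcript of GALNT5, GALNT13, GALNT14 and GALNT16, while the members with the most reads in wild-type cells, GALNT1 and GALNT2, differed little. Of the 9 members abundant enough for the edgeR fit over all genes, 4 were among the genes called lower in knockout (GALNT5, GALNT13, GALNT14 and GALNT16), 0 among those called higher, and 5 in neither group. A call here means a Benjamini-Hochberg adjusted p under 0.05 over all 16233 tested genes, of which 3.50% were called lower and 3.06% higher. The same 4 members had a fitted log2 fold change of -1 or less, as did 2.96% of the tested genes. GALNT3 was too low to be tested. Since the members were chosen on this same contrast, nothing is read from their count against that background. In bulk RNA, fewer cells with a transcript and less of it per cell cannot be told apart, and with 1 clone, effects of the lost gene cannot be told apart from differences between clones.

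**Figure D1:**
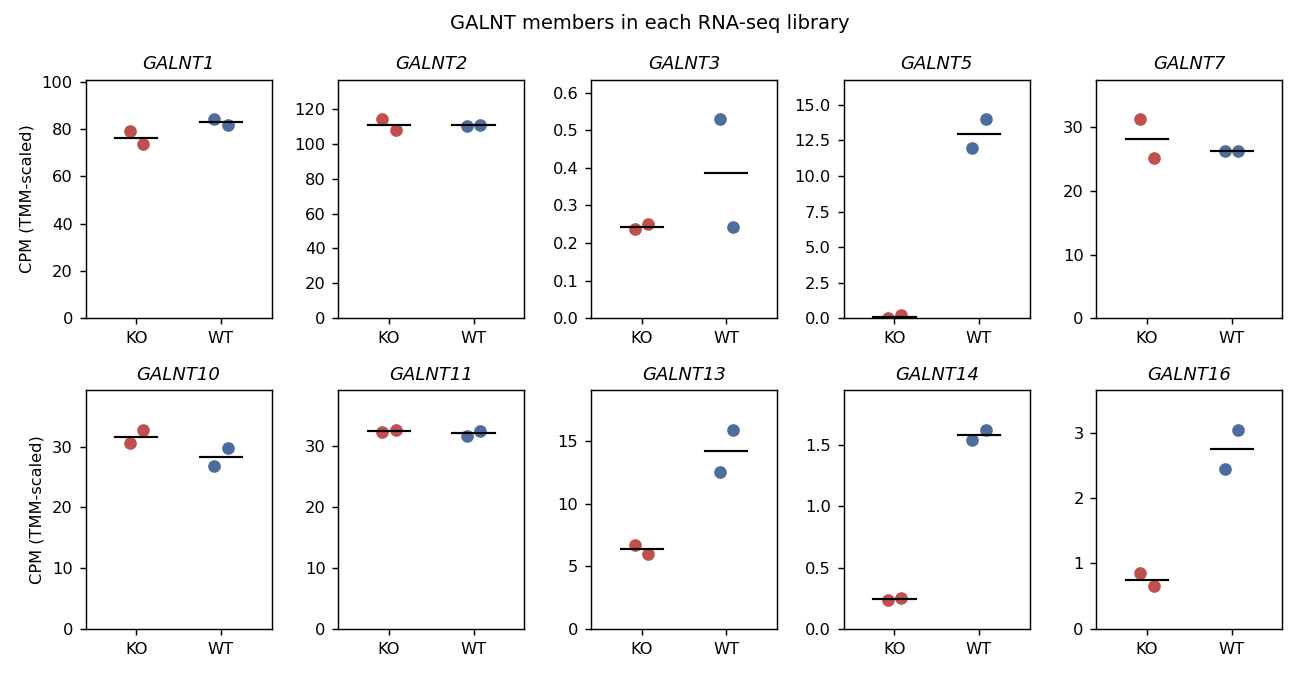
CPM (counts scaled to library sizes corrected by the trimmed mean of M-values) of each GALNT member in the 2 knockout (KO, left) and 2 wild-type (WT, right) RNA-seq libraries. Each point is 1 library and each bar the mean, and every axis starts at 0. The GALNT5, GALNT13, GALNT14 and GALNT16 points of knockout lie below those of wild-type, with GALNT5 at 0 and 0.201 CPM.

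GALNT5, a member with an unusually long stem between its membrane anchor and its catalytic domain, had 0 and 4 counts in the knockout libraries, against 249 and 345 counts in the wild-type libraries. That is 0 and 0.201 CPM in knockout and 11.97 and 13.97 CPM in wild-type. Both knockout libraries were thus close to 0 and both wild-type libraries well counted, with no overlap. The fitted log2 fold change was -6.98 ± 0.36 (SE), and 0.142% of the tested genes had a value that low or lower. Over the summed counts, wild-type exceeded knockout 134-fold, with an exact 95% interval of 52.0 to 493 that covers counting error only. With so few knockout counts the fitted value turned on single libraries: it was -5.97 without knockout replicate 1 and -11.17 without knockout replicate 2.

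GALNT14, which has been tied to O-glycosylation of death receptors, had 5 counts in each knockout library, against 32 and 40 counts in wild-type. Its levels were 0.236 and 0.251 CPM in knockout and 1.54 and 1.62 CPM in wild-type. The replicates lay close together and the groups far apart, with a log2 fold change of -2.67 ± 0.47. The log2 ratio of CPM was the same at both dates, -2.70 on the first and -2.69 on the second. GALNT5 and GALNT14 passed the filter on low counts only through their wild-type libraries, so their low knockout level is built into their being tested.

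GALNT16, a relative of GALNT2 and GALNT14 in the same subfamily, stood at 0.851 and 0.654 CPM in knockout and 2.45 and 3.04 CPM in wild-type, which is 18 and 13 counts against 51 and 75 counts. The log2 fold change was -1.86 ± 0.33, and a remainder of 27.3% of the wild-type level was counted in knockout. The log2 ratio was -1.53 at the first date and -2.22 at the second, so both dates had the knockout library lower.

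GALNT13, a close relative of GALNT1 best known from the nervous system, was lower but still well counted, with 142 and 119 counts in knockout and 261 and 392 counts in wild-type. Its levels were 6.72 and 5.98 CPM in knockout and 12.5 and 15.9 CPM in wild-type. Knockout held 44.3% of the wild-type level over the summed counts, a log2 fold change of -1.17 ± 0.15. Among the 4 lower members this was the smallest fold, and the wild-type libraries differed more than the knockout libraries did. The log2 ratio was -0.90 at the first date and -1.41 at the second.

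The remaining tested members showed fold changes near 0. GALNT2, a broadly acting enzyme whose loss in humans disturbs lipoprotein levels, stood at 114 and 108 CPM in knockout and 110.2 and 110.7 CPM in wild-type. Its log2 fold change was 0.01 ± 0.07, with an approximate 95% interval of -0.13 to 0.14. GALNT1, another broadly acting member, stood at 79.4 and 73.6 CPM in knockout and 84.1 and 81.8 CPM in wild-type, a log2 fold change of -0.12 ± 0.07 (interval -0.26 to 0.03). Both GALNT1 knockout values lay below both wild-type values, an arrangement that 21.8% of all tested genes shared. The wild-type samples of GALNT2 were close to each other, and the knockout samples lay on both sides of them.

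GALNT11, which acts on Notch1, was alike in all 4 libraries, at 32.2 and 32.5 CPM in knockout and 31.6 and 32.4 CPM in wild-type. The interval of its log2 fold change ran from -0.17 to 0.20. GALNT7 and GALNT10 mainly follow other members by acting on peptides that already carry a sugar. GALNT7 had 31.2 and 25.1 CPM in knockout and 26.2 CPM in both wild-type libraries, a log2 fold change of 0.10 ± 0.10 (interval -0.10 to 0.31). GALNT10 had 30.6 and 32.7 CPM in knockout and 26.9 and 29.8 CPM in wild-type, a log2 fold change of 0.16 ± 0.10 (interval -0.03 to 0.34). Of these 3, GALNT10 alone had both knockout values above both wild-type values, as did 23.5% of tested genes.

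GALNT3, which protects the hormone FGF23 from cleavage, gave 5 counts in each knockout library and 11 and 6 counts in the wild-type libraries. One wild-type library was at the knockout level. The ratio of wild-type to knockout over the summed counts was 1.53 with an exact interval of 0.663 to 3.75, so a difference was not detectable at this depth.

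**Figure D2:**
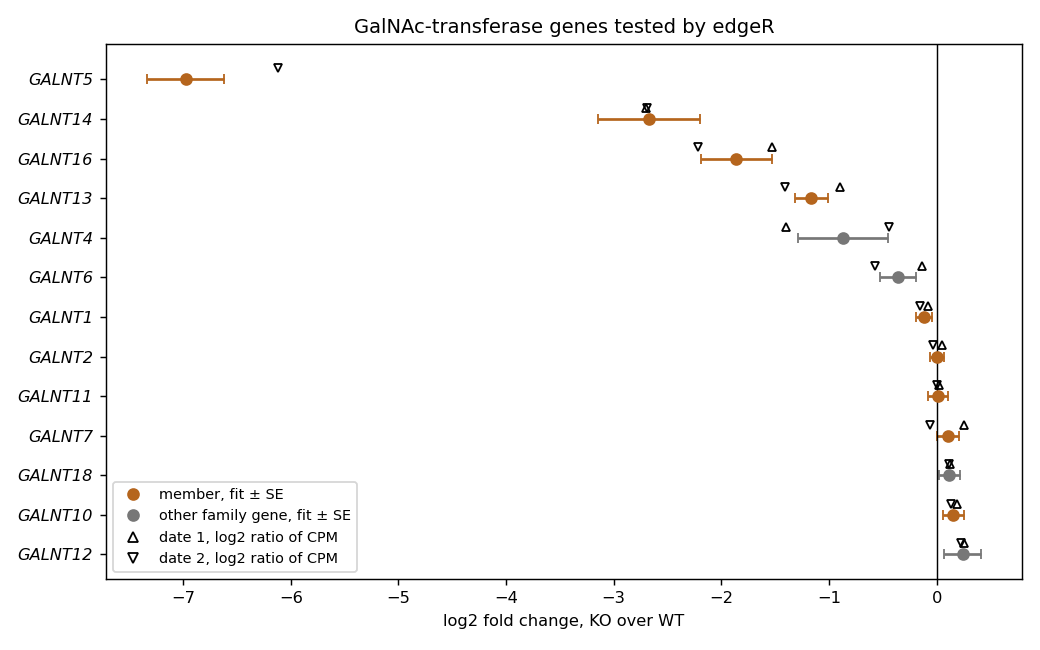
Log2 fold change of knockout over wild-type for the 13 GalNAc-transferase genes that were tested and had counts in knockout, with the standard error of the edgeR fit as bars. Triangles give the log2 ratio of CPM at each date, and GALNT5 has no ratio at the first date because its knockout library had 0 counts. GALNT5, GALNT14, GALNT16 and GALNT13 stand apart on the negative side, from -6.98 to -1.17.

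Of the difference in summed family level, -24.3 CPM (knockout minus wild-type), the 4 lower members made up -24.1 CPM. The 4 lower members together took 2.31% and 2.20% of all family counts in the knockout libraries, against 8.16% and 9.58% in the wild-type libraries. Exact 95% intervals of these shares were 1.97% to 2.68% and 1.85% to 2.58% in knockout, and 7.54% to 8.81% and 8.98% to 10.2% in wild-type. These intervals cover counting error only. The 4 were grouped by their lower calls in these same libraries, so their lower sum and share in knockout were built in. The summed level of all 20 family genes was 330.4 ± 10.7 CPM in knockout and 355 ± 7.56 CPM in wild-type (SD, n = 2 each). The 16 other family genes summed to 323.0 ± 10.2 CPM in knockout and 323.2 ± 3.31 CPM in wild-type. GALNT2 held 33.6% ± 0.184 of family counts in knockout and 31.1% ± 0.570 in wild-type, and GALNT1 held 23.1% ± 0.493 in knockout and 23.4% ± 0.966 in wild-type (SD, n = 2 each). These are shares of reads: the counts were not divided by transcript length, so they do not rank the amounts of the transcripts, and they say nothing of enzyme activity.

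The other 10 family genes gave a mixed picture. They are what the choice of members left over, so their values are a description too. GALNT18 (27.5 and 29.2 CPM in knockout, 25.2 and 27.0 CPM in wild-type) had a log2 fold change of 0.12 ± 0.10, and GALNT12, a member expressed in colon, 0.24 ± 0.17. GALNT6 stood at 6.67 and 5.93 CPM in knockout and 7.31 and 8.83 CPM in wild-type, with a log2 fold change of -0.36 ± 0.17 that missed the threshold (edgeR adjusted p = 0.258). GALNT4, which like GALNT7 acts on glycopeptides, had 10 and 16 counts in knockout and 26 and 27 in wild-type (-0.87 ± 0.42, edgeR adjusted p = 0.273). It shares sequence with the POC1B-GALNT4 readthrough gene, so its counts are uncertain. GALNT8, GALNT9 and WBSCR17 (now GALNT17) were below the filter, with at most 11, 8 and 1 counts in any library, and GALNT15 and GALNTL5 had 0 counts throughout.

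GALNTL6 was the one gene of these 10 that was called, and it was lower. It had 0 counts in both knockout libraries and 10 and 18 counts in the wild-type libraries, at least 8.42-fold lower in knockout when knockout is set to 3 counts over the group (edgeR adjusted p = 0.000275). The groups did not overlap, but the wild-type counts were few. It too entered the fit only through wild-type, and without wild-type replicate 2 it was not tested.

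Position was examined next, since it had no part in the choice of members. Positions are those of GRCh38.p14. GALNT13 (chromosome 2, 153068293 to 154456574), GALNT5 (chromosome 2, 157257705 to 157318491) and GALNT3 (chromosome 2, 165747588 to 165794692) lie in a row on the long arm of chromosome 2, and GALNT14 (chromosome 2, 30886782 to 31138440) on its short arm. GALNT16 is on chromosome 14 (69259631 to 69386337). Thus 3 of the 4 lower members, and 4 of the 10 members in all, lie on chromosome 2. Of 946 tested genes with a position on that chromosome, 33 were called higher and 37 lower, a share of 7.40% against 6.56% of all tested genes. The median log2 fold change of the 946 was 0.00.

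Most tested genes nearest to the lower members were not called. Members themselves are not counted as neighbours, so GALNT13 and GALNT5, each among the nearest tested genes of the other, are left out. GALNT13 and GALNT5 are 2.80 Mb apart, and the 2 tested genes between them, NR4A2 and GPD2, were not called (-0.28 ± 0.19 and 0.06 ± 0.07). Of the 20 nearest tested neighbours of the 4 lower members, 1 was called higher and 1 lower, a share of 10.0% against 6.56% of all tested genes. Their median log2 fold change was -0.28 around GALNT5, -0.12 around GALNT13, -0.01 around GALNT14 and -0.05 around GALNT16. ERMN, the gene of a cytoskeletal protein of oligodendrocytes, lies 0.140 kb from GALNT5. It stood at 35.6 and 32.5 CPM in knockout and 43.3 and 45.8 CPM in wild-type, a log2 fold change of -0.39 ± 0.09 (edgeR adjusted p = 0.00214). That call was lost without wild-type replicate 2 (adjusted p = 0.0902). ACVR1C, an activin receptor gene 208 kb from GALNT5, had 2 and 5 counts in knockout and 11 and 19 in wild-type. Its log2 fold change of -1.91 ± 0.64 missed the threshold (edgeR adjusted p = 0.0635). ACVR1C passed the filter on low counts only through wild-type, so its low knockout level is built in. The strand setting of the counting is not given in the sources used here, so reads of abutting or overlapping genes may be mixed.

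Next to GALNT14 the direction was opposite. EHD3, an endosomal recycling gene 95.7 kb away, stood at 10.3 and 11.9 CPM in knockout and 0.529 and 0.567 CPM in wild-type (4.32 ± 0.25, edgeR adjusted p = 5.16e-19). The other 5 neighbours of GALNT14 were not called. Around GALNT16 and GALNT13, 0 of 6 and 0 of 5 neighbours were called, among them ERH and RPRM, whose annotated spans touch or lie within those of GALNT16 and GALNT13. Their log2 fold changes lay between -0.54 (RPRM) and 0.06 (GPD2).

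Members that were not called lower also had called neighbours. GALNTL6 lies 0.127 Mb from GALNT7, so a family gene without knockout counts adjoins one that was not called. HAND2, a transcription factor gene on the other side of GALNT7, stood at 0.568 and 0.754 CPM in knockout and 1.15 and 1.94 CPM in wild-type (-1.24 ± 0.39, edgeR adjusted p = 0.0446). That call was lost without knockout replicate 1, knockout replicate 2 or wild-type replicate 2 (adjusted p = 0.211, 0.0997 and 0.628) and with DESeq2 (adjusted p = 0.421). Near GALNT3, the nuclear protein gene CSRNP3 was lower (1.14 and 1.26 CPM in knockout, 6.83 and 5.39 CPM in wild-type, -2.34 ± 0.25, edgeR adjusted p = 4.19e-10). The sodium channel gene SCN9A, also near GALNT3, was higher (46.4 and 53.9 CPM in knockout, 23.6 and 27.8 CPM in wild-type, 0.96 ± 0.10, edgeR adjusted p = 1.08e-10). Over the 56 nearest neighbours of all members, 2 were higher and 4 lower, a share of 10.7% against 6.56% of all tested genes. GALNTL6, a family gene tested only through wild-type, is among the 4 lower. Fewer were lower without wild-type replicate 2, as over all tested genes.

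**Figure D3:**
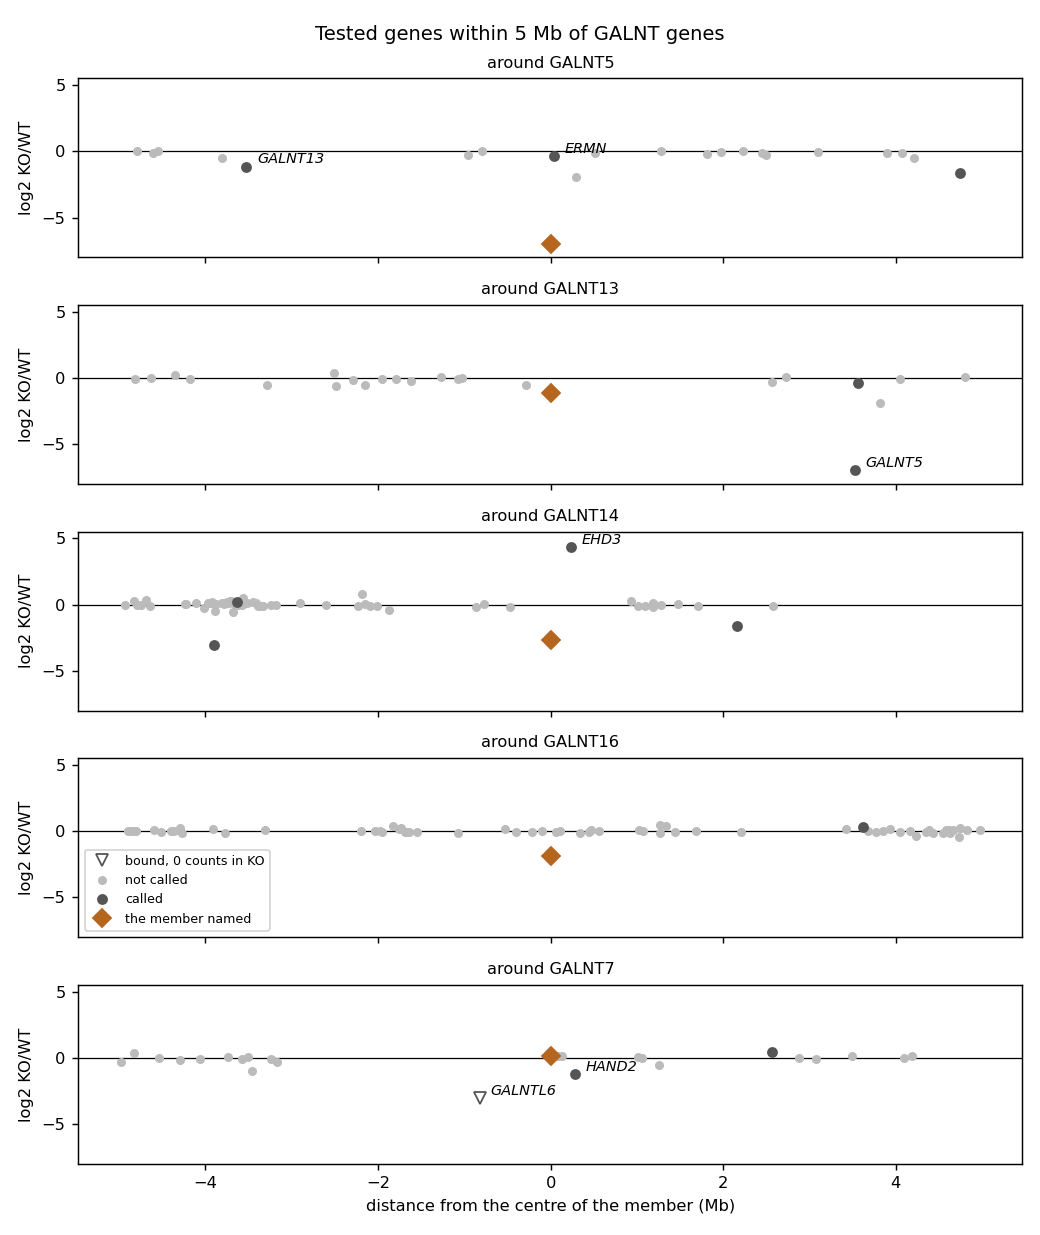
Log2 fold change of knockout over wild-type for tested genes within 5 Mb of 5 GALNT members, by distance from the member's centre. Diamonds mark the member, dark points the called genes, grey points the others, and the open triangle GALNTL6 at its bound, since it had 0 knockout counts. NR4A2 and GPD2, between GALNT13 and GALNT5, lie near 0 (-0.28 and 0.06), and EHD3 at 4.32 lies opposite to GALNT14 at -2.67.

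Promoter windows are shown to compare the sequence at the start of members called lower with that of members that were not. RefSeq windows (GRCh38.p14) of 300 bases, 250 before and 50 after an annotated start, were found for 9 of the 10 members, 13 windows in all, and none for GALNT5. The sequences below run 5′ to 3′ on the strand of the gene, with every CG dinucleotide in capitals. GALNT14 window 1 is chr2:31138391-31138690 (minus strand), GALNT16 chr14:69259908-69260207, GALNT13 window 1 chr2:153068043-153068342 and window 2 chr2:153477651-153477950, GALNT2 chr1:230066988-230067287 and GALNT11 chr7:152074787-152075086 (all plus strand but the first).
GALNT14, window 1: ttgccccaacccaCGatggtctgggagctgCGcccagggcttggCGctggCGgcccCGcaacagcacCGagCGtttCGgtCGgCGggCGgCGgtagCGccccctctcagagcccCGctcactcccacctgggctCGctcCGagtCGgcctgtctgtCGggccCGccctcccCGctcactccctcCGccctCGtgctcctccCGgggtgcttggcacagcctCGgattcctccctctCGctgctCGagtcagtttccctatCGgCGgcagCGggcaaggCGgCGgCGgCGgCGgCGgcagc
GALNT16: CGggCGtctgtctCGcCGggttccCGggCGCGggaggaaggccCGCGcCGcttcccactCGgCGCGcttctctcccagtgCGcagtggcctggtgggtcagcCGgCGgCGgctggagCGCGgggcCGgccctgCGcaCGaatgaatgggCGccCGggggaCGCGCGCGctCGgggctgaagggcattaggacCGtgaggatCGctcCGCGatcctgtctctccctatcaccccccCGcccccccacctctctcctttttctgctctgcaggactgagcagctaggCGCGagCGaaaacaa
GALNT13, window 1: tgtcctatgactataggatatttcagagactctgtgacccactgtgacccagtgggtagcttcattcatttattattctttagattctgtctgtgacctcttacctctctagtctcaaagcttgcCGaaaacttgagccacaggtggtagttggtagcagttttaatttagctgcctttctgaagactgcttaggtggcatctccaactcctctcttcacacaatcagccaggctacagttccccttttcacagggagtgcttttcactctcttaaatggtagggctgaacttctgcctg
GALNT13, window 2: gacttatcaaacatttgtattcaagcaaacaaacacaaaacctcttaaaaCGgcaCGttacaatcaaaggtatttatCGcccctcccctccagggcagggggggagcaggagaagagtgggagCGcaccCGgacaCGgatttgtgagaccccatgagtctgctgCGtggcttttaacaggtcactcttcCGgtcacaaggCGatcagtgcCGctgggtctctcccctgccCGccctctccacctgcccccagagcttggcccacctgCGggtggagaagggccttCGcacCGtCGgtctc
GALNT2: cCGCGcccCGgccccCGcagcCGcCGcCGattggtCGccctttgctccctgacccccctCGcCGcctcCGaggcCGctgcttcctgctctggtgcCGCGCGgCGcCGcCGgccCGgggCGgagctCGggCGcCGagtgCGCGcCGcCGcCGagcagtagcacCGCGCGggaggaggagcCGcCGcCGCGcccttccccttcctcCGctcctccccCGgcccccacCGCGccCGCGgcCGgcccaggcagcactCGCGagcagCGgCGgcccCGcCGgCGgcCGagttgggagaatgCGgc
GALNT11: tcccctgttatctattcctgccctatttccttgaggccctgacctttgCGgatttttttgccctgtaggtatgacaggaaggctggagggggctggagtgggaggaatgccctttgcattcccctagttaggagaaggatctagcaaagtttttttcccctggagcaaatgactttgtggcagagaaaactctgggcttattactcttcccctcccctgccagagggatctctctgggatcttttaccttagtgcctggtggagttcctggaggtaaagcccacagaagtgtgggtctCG

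Over the windows found, CpG content did not divide the lower members from the others, but GALNT5 had no window to compare. GALNT16 (37 CG dinucleotides, 0.97 observed over expected) and GALNT14 window 1 (35, 0.87) were rich in CpG, as was the GALNT2 window (51, 1.04). GALNT13 window 1 had 1 CG dinucleotide (0.07), GALNT14 window 2, which is not printed, had 2 (0.14) and the GALNT11 window had 2 (0.10), so lower members and an uncalled one had windows almost free of them. The GALNT11 window, the only window of that gene, lies inside its annotated span (chromosome 7, 152025674 to 152122340), away from the 5′ end. GALNT14 window 2 likewise lies inside the span of GALNT14. GALNT13 window 2 was intermediate, with 15 (0.61). It lies within the annotated span of another gene, RPRM (chromosome 2, 153477338 to 153478762). Over all 35116 windows of the table the median was 14 CG dinucleotides and 0.58. Which start these cells use is not seen in counts per gene.

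Short motifs were looked up on both strands of the same windows. GGGCGG, the core of the GC box, was in 3 of 5 windows of the lower members and in 6 of 8 windows of the others, against 45.0% of all windows. CCAAT was in 1 of 5 windows of the lower members and 4 of 8 of the others (34.6% of all windows), and TATAAA and CACGTG were in none of the 13 (11.5% and 7.26% of all windows). None of the 4 motifs contains another, and a match is a description only.

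**Figure D4:**
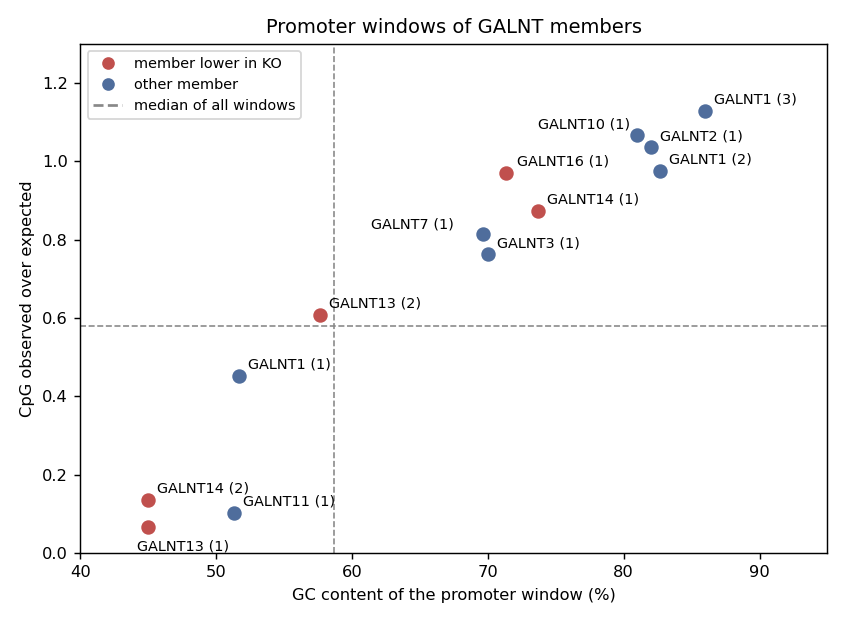
GC content against CpG observed over expected for the 13 RefSeq promoter windows of 9 GALNT members, with the window number in brackets and dashed lines at the medians of all 35116 windows. Windows of members lower in knockout (red) spread from 0.07 to 0.97 on the vertical axis, and those of the other members (blue) from 0.10 to 1.13.

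Pathway genes around the GalNAc-transferases were compared next, in 7 lists of 87 genes in the files, of which 58 were tested. Of these, 4 were called higher and 3 lower, 12.1% of those tested, against 6.56% of all tested genes. The lists were chosen with earlier results of these data known, so nothing is read from that share. The step after the GalNAc-transferases did not show a called change: 0 of 5 tested core extension genes were called. C1GALT1, the core 1 enzyme itself, stood at 26.8 and 21.5 CPM in knockout and 23.7 and 26.6 CPM in wild-type (-0.06 ± 0.11). C1GALT1C1, its chaperone, stood at 37.1 and 36.8 CPM in knockout and 34.9 and 34.3 CPM in wild-type (0.09 ± 0.09), and the galactosyltransferase gene B4GALT5 at 97.9 and 100.1 CPM in knockout and 99.4 and 94.97 CPM in wild-type (0.03 ± 0.07). The median log2 fold change of that list was -0.06, against 0.00 over all tested genes.

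Among genes that supply UDP-GalNAc and other sugar nucleotides, including those for sialic acid, 1 rose and 1 fell. GFPT2, an isoform of the rate-limiting enzyme of the hexosamine pathway, rose (31.9 and 30.4 CPM in knockout, 21.2 and 20.9 CPM in wild-type, 0.56 ± 0.10, edgeR adjusted p = 4.91e-05). UAP1, which makes UDP-GlcNAc and UDP-GalNAc, fell to 62.9 and 58.9 CPM in knockout, against 70.4 and 73.5 CPM in wild-type (-0.24 ± 0.08, edgeR adjusted p = 0.0457). The UAP1 call was lost with DESeq2 (adjusted p = 0.147) and without knockout replicate 2, wild-type replicate 1 or wild-type replicate 2 (adjusted p = 0.301, 0.150 and 0.408). The list had 12 tested genes, with 1 higher, 1 lower and a median of -0.05.

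Among 6 tested sialyltransferases of O-glycans 1 was called, ST3GAL4, which adds sialic acid to galactose. It was higher, at 28.4 and 30.5 CPM in knockout and 22.0 and 23.4 CPM in wild-type (0.37 ± 0.10, edgeR adjusted p = 0.0113). That call was lost with DESeq2 (adjusted p = 0.0947) and without knockout replicate 2, wild-type replicate 1 or wild-type replicate 2 (adjusted p = 0.123, 0.193 and 0.0516). The list's median log2 fold change was 0.13.

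Of 26 mucins and mucin-like carriers only 8 were abundant enough to be tested, with 2 higher, 1 lower and a median of 0.02. The hyaluronan receptor gene CD44 had 4 and 7 counts in knockout and 74 and 82 counts in wild-type, or 0.189 and 0.352 CPM against 3.56 and 3.32 CPM (-3.65 ± 0.39, edgeR adjusted p = 3.13e-10). The groups were far apart, but CD44 passed the filter on low counts only through its wild-type libraries. MCAM, a surface adhesion gene, rose (92.5 and 102 CPM in knockout, 76.3 and 75.1 CPM in wild-type, 0.36 ± 0.07, edgeR adjusted p = 0.000321). PODXL2, a sialomucin gene, was higher as well (0.25 ± 0.07, edgeR adjusted p = 0.0277), but not with DESeq2 (adjusted p = 0.141), with scaling by library total (adjusted p = 0.0651) or without knockout replicate 2, wild-type replicate 1 or wild-type replicate 2 (adjusted p = 0.326, 0.421 and 0.0756). MUC1, the only mucin proper that was tested, had 0.378 and 0.553 CPM in knockout and 0.577 and 0.891 CPM in wild-type and was not called.

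Of 9 tested genes for proteins known as substrates of single family members, PLTP alone was called. PLTP encodes phospholipid transfer protein, a GALNT2 substrate, and fell to 20.7 and 18.5 CPM in knockout, against 30.2 and 32.7 CPM in wild-type (-0.68 ± 0.10, edgeR adjusted p = 1.99e-06). The GALNT11 substrate gene NOTCH1 (0.17 ± 0.07) and the death receptor genes TNFRSF10A (-0.04 ± 0.09) and TNFRSF10B (0.00 ± 0.07), chosen for mention after their values were seen, were not called. Of 10 tested enzymes that start other kinds of O-glycosylation 0 were called, with OGT at 271 and 289 CPM in knockout and 283 and 276 CPM in wild-type (0.00 ± 0.06) and the collagen galactosyltransferase COLGALT1 at 0.02 ± 0.06. Of the 8 subunit genes of the COG complex, which keeps Golgi enzymes in place, 0 were called, with COG4 at 0.14 ± 0.06 and COG5 at 0.09 ± 0.09.

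**Figure D5:**
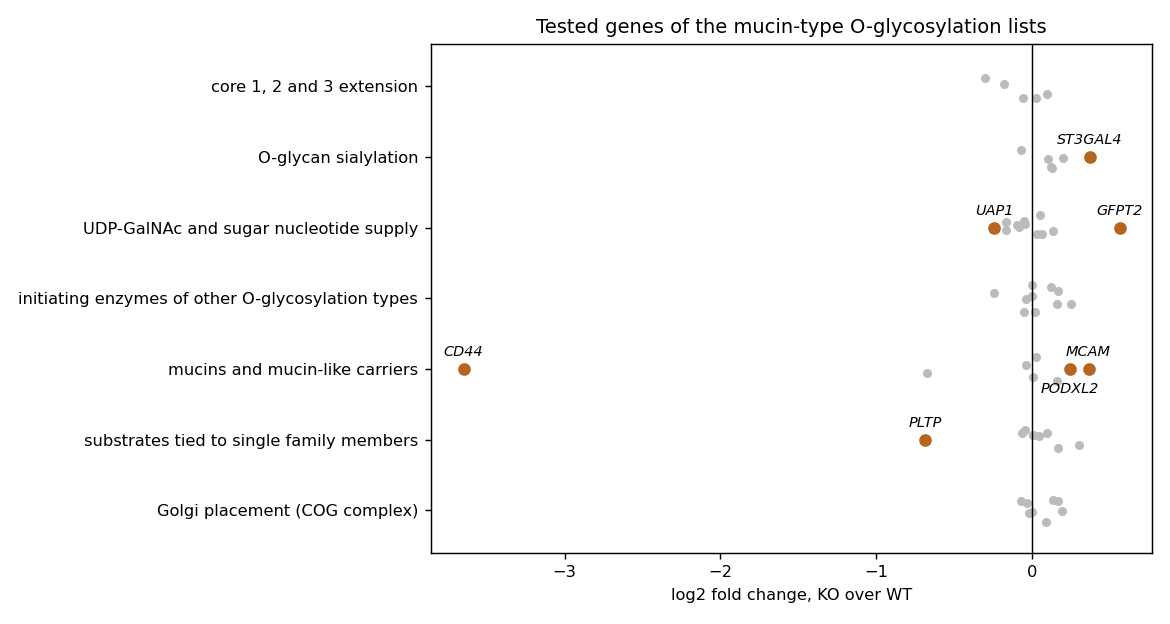
Log2 fold change of knockout over wild-type for the 58 tested genes of 7 lists around mucin-type O-glycosylation, 1 list per row. Called genes are brown and named, the others grey with vertical scatter for legibility only. CD44 at -3.65 lies far from the rest, and the core extension, other O-glycosylation and COG rows hold no called gene.

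The transcripts whose pattern over the 4 libraries lay nearest to each lower member were found by the Euclidean distance of centred log2 CPM. For GALNT5 they were the DNA repair gene MGMT (distance 1.19 log2 units), with 0 and 1 counts in knockout and 173 and 254 in wild-type, and FASTKD2 (1.41), with 1 and 3 counts in knockout and 317 and 513 in wild-type. For GALNT14 they were the potassium channel gene KCNK1 (0.10), at 1.47 and 1.46 CPM in knockout and 8.12 and 9.15 CPM in wild-type, and the laminin gene LAMA2 (0.13), at 8.56 and 9.05 CPM in knockout and 46.5 and 50.2 CPM in wild-type. For GALNT13 they were RP11-407N17.5 (0.09) and the retinoic acid hydroxylase gene CYP26A1 (0.12). For GALNT16 they were TRPV3 and LINGO3 (0.09 each), which held the same counts as each other, 4 and 3 in knockout and 13 and 18 in wild-type. MGMT, FASTKD2, RP11-407N17.5, TRPV3 and LINGO3 passed the filter on low counts only through their wild-type libraries, so their low knockout level is built in. With 4 libraries in 2 groups such likeness is a description of size and direction only.

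The same RNA had also been sequenced as small RNA, and GALNT7 is known as a target of miR-30 in melanoma cells. The miR-30 microRNAs share a seed, bases 2 to 8, shown in capitals in the mature RefSeq sequences (GRCh38.p14) of 3 of them, which differ only after it.
miR-30a-5p: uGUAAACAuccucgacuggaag
miR-30c-5p: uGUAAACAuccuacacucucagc
miR-30e-5p: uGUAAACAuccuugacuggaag
The 5 miR-30 5p arms together made up 30.4% and 28.1% of microRNA counts in the knockout libraries and 18.8% and 27.0% in the wild-type libraries, and the libraries held only 157706 to 346626 such counts. miR-30d-5p supplied most of these, with 40288 and 82122 counts in knockout and 36112 and 59572 in wild-type, and miR-30e-5p had 6669 and 13929 in knockout and 5840 and 8146 in wild-type. miR-30a-5p stood at 5491 and 4023 CPM in knockout and 11563 and 17974 CPM in wild-type, a log2 fold change of -1.63 ± 0.35. It missed the threshold (edgeR adjusted p = 0.417, unadjusted p = 0.00229), and 0.366% of 546 microRNAs were called. Its edgeR adjusted p was 3.62e-09 in the fit with the date as replicate block and 0.00551 with no filter on low counts, and DESeq2 gave 0.000131. The other 3 tested arms were not called. On simulated small RNA data the fit recovered only 35% of 4-fold changes, so an uncalled arm is not thereby unchanged. Set beside these, GALNT7 had the log2 fold change of 0.10 ± 0.10 given above.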

How the data were processed

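RNA of 2 knockout and 2 wild-type cultures, biological replicates per the labels, was sequenced as stranded total RNA and as small RNA. The authors' deposited files hold raw counts per gene symbol or mature microRNA. The tools listed in the submitters' processing notes are STAR, featureCounts, Subread, cutadapt, SAMtools and FastQC, with build hg38. Their versions, the annotation and the strand setting are not given in the sources at hand, so reads of overlapping or near-identical genes are uncertain.

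Each assay was fitted in R 4.3.3 with edgeR 4.0.16: filterByExpr (minimum count 10), TMM scaling, and the robust quasi-likelihood test of knockout against wild-type, Benjamini-Hochberg adjusted, threshold 0.05. This left 16233 genes and 546 microRNAs. DESeq2 1.42.0 was an alternative, and the fit was tested on simulated data. There it recovered 95% of 4-fold changes in RNA-seq, with 12 false calls, but only 35% in small RNA, with 6 false calls. An SE is the log2 fold change divided by the square root of F, and intervals of fold changes take 1.96 SE. Replicates differed by more than counting noise (chi-square per degree of freedom 4.37 in knockout and 3.62 in wild-type RNA-seq), so none was treated as a duplicate. Replicate numbers pair the samples because the titles give a shared date. Same-date deviations correlated at 0.15 over 13902 genes and -0.08 over 546 microRNAs. Positions and sequences came from RefSeq tables (GRCh38.p14), and 87.6% of tested genes had a position.

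The members and lists were chosen with earlier results of these data known. Named were all members, called list genes (up to 4 a list, else the 2 of highest CPM), called neighbours (up to 6, from the 3 nearest tested genes on each side) and the 2 genes nearest in pattern to each member changed by at least 1 on the log2 scale. NR4A2, GPD2, ERH, RPRM, ACVR1C, C1GALT1, MUC1 and the marker and uncalled substrate genes were named after their values were seen.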

Additional observations from a re-analysis of the deposited data

How the results depend on the processing

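The 4 members called lower, and 0 higher, were so under every alternative run: other scalings, no filter, DESeq2, the date as a replicate block and each library left out in turn. The replicate block gave 767 higher and 784 lower genes, against 497 and 568 without it. It gave 5 higher and 4 lower list genes, against 4 and 3 without it, and 3 higher and 4 lower neighbours, against 2 and 4. Among the genes and microRNAs named by rule it changed the call of miR-30a-5p, and for genes named after their values were seen the blocked call was not compared. DESeq2 called 255 genes higher and 331 lower, and 2 list genes higher. Leaving out 1 library gave 240 to 684 genes higher, 340 to 705 lower, 2 to 4 list genes higher and 1 to 4 neighbours lower. Counting every tested gene within 1 Mb, chosen after seeing the data, gave 5 neighbours higher. In small RNA, 1 miR-30 arm was lower with DESeq2, with no filter and with the block. Some uncalled values changed sign, and the cause was not tested. With scaling by library total GALNT2 was -0.0206, GALNT11 -0.0124, OGT -0.0232 and COLGALT1 -0.00550. OGT was -0.00199 with RLE size factors and -0.00200 with DESeq2. Leaving out 1 library gave ranges of -0.0323 to 0.0451 for GALNT2, -0.0612 to 0.251 for GALNT7, -0.00672 to 0.0365 for GALNT11, -0.00387 to 0.0575 for B4GALT5, -0.0437 to 0.0509 for OGT, -0.00525 to 0.0490 for COLGALT1, -1.20 to 0.925 for miR-30c-5p and -0.0575 to 0.355 for miR-30d-5p. The pattern neighbours CYP26A1, TRPV3 and LINGO3 lost their calls with DESeq2 (adjusted p = 0.0525, 0.444 and 0.444), CYP26A1 also without wild-type replicate 2 (0.0556), TRPV3 and LINGO3 also with no filter (0.0903 each) and without any 1 library (0.181 to 0.406), and RP11-407N17.5 had none. Levels per length were not run, since no transcript length was at hand. Few counts limit the values of GALNT3, GALNT5, GALNT8, GALNT9, GALNT14, WBSCR17 and GALNTL6, and intervals of counts cover counting error only.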
